A study of Homo sapiens with 6 samples.

Results

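The aldehyde dehydrogenase genes described here were the rows of the expected count and TPM tables (TPM is a length-corrected level with the same total in every library) with the symbols ALDH1A1, ALDH1A3, ALDH1B1, ALDH1L1, ALDH2, ALDH3A2, ALDH3B1, ALDH4A1, ALDH7A1 and ALDH18A1. They were 10 of the 23686 genes in the tables, and all 10 symbols were found. They were picked by symbol, by a rule with no expression threshold, at a time when earlier results of these data were known. RNA sequencing was done on 6 libraries from 2 human non-small cell lung carcinoma lines, A427 and HCC15, both labelled WT. Each line gave 1 library from cells with the control siRNA (labelled Tax siRNA), 1 with LGR6 siRNA 2 and 1 with LGR6 siRNA 4, all collected 48 h after transfection and grown in medium with 5% serum. LGR6 binds R-spondins, which make cells more responsive to Wnt ligands, and the design asks what its silencing changes.

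Aldehyde dehydrogenases oxidise aldehydes to carboxylic acids with NAD or NADP as cofactor. Some members act on broad sets of reactive aldehydes, while others serve 1 pathway: retinoic acid synthesis, ethanol breakdown, fatty aldehyde oxidation, or the metabolism of proline, lysine or folate. High aldehyde dehydrogenase activity, often attributed to ALDH1A1 or ALDH1A3, is used as a marker of stem-like cells in lung and other carcinomas.

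Total counts were 25546438 to 28987906 reads per library, and the tests covered the 14481 genes that reached 10 reads in 2 or more libraries. The targeted gene was nearly absent from A427, with 5, 0 and 0 LGR6 reads in the control, siRNA 2 and siRNA 4 libraries. In HCC15 LGR6 had 257, 39 and 77 reads, which was 0.140 and 0.307 times the control level in CPM (reads relative to library size, scaled by edgeR's TMM factors). No 2 libraries shared line and siRNA, and the labels do not say whether the cultures were separate. The p-values therefore do not measure a spread between replicates: for the line difference and for single siRNAs they rest on the disagreement of the lines over each siRNA's effect. The epithelial markers KRT8, KRT18 and EPCAM were present in both lines, and 4 of 5 epithelial markers in A427 and 5 of 5 in HCC15 reached 1 TPM in all 3 libraries. Lung and squamous lineage markers were low: 1 of 6 reached 1 TPM in all 3 A427 libraries and 0 of 6 did so in HCC15, with sums of 2.85 to 3.64 and 0 to 0.37 TPM. NKX2-1, SFTPC, TP63 and KRT5 were at 0.11 TPM or less in every library, while in A427 SOX2 was at 1.5, 1.64 and 2.93 TPM and NAPSA at 1.31, 1.36 and 0.57 TPM (control, siRNA 2, siRNA 4). Markers of other cell types differed between the lines: summed fibroblast markers were 84.39 to 107.06 TPM in A427 and 5.19 to 7.8 in HCC15 (2 and 1 of 4 at 1 TPM or more in all 3 libraries, DCN at 0), and summed blood cell markers were 25.35 to 32.49 and 2.2 to 4.22 TPM (2 and 1 of 4, CD3E at 0). In A427 most of the fibroblast sum was 1 gene, COL3A1 (73.97, 89.95 and 96.05 TPM in the control, siRNA 2 and siRNA 4 libraries). PDGFRB was at 0.21 TPM or less there. Most of the A427 blood cell sum was CD68 (23.77, 31.27 and 24.52 TPM in the same order). Endothelial markers summed to at most 0.25 TPM. The part of these markers in the line differences below was not tested.

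ALDH1A1, ALDH1A3, ALDH3B1 and ALDH7A1 were the 4 members lower with siRNA 4 than with siRNA 2, as described further on, and the sequences before their start sites are shown because these members carry that comparison's calls. The ALDH3B1 call rested on HCC15, since A427 had too few reads. Each is the 250 bases before an annotated start in RefSeq (GRCh38.p14), printed 5′ to 3′ on the gene's strand, and 9 of the 10 members had such an entry. Capitals mark matches on either strand to the CCAAT box (CCAAT) or the GC box (GGGCGG), and adjoining matches run together. ALDH3B1 had 2 entries, and the one printed is that with matches.
ALDH1A1, chr9:72953054-72953303, minus strand: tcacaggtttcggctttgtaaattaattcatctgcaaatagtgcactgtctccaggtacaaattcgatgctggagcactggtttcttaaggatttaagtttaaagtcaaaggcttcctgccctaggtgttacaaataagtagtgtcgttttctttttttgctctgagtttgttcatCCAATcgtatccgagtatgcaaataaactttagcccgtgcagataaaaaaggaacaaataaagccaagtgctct
ALDH1A3, chr15:100879581-100879830, plus strand: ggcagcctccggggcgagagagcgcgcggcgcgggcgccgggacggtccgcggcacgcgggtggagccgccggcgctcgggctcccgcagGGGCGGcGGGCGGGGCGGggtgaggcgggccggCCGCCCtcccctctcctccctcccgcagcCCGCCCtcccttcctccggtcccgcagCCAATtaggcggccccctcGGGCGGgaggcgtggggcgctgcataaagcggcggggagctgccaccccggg
ALDH3B1, entry 2, chr11:68010077-68010326, plus strand: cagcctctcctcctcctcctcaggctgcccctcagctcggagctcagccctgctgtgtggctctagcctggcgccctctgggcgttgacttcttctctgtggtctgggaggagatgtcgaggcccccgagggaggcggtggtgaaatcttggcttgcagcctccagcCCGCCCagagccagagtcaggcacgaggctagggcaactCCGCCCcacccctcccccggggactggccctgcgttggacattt
ALDH7A1, chr5:126595220-126595469, minus strand: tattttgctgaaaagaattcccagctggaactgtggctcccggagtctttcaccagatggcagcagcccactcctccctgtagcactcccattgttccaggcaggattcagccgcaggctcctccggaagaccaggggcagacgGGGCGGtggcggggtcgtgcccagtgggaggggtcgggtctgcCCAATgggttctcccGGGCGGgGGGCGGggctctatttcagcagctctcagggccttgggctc

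The 4 printed windows were unlike each other in composition. ALDH1A1 had 38.4% GC, 6 CpG and 1 CCAAT box, while ALDH1A3 had 82.4% GC, 38 CpG, 1 CCAAT box and 6 GC boxes. ALDH3B1 had 66.8% GC, 11 CpG and 2 GC boxes in the printed window, but its other entry, not printed, had 63.6% GC, 3 CpG and no match to any of the 4 motifs searched. ALDH7A1 had 64% GC with 1 CCAAT box and 3 GC boxes. Among 35116 such windows the median was 58% GC with 11 CpG. A CCAAT box was in 32.0% and a GC box in 42.6% of them. No match to TATAAA (in 10.7% of windows) or to the antioxidant response element core TGACNNNGC (in 10.9%) was found in these 4 windows. A match describes letters only.

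ALDH1A1 was by far the most abundant member in both lines. Its TPM was 4650.33, 3685.23 and 2953.42 in A427 (in the order control, siRNA 2, siRNA 4 here and below) and 645.12, 674.29 and 300.27 in HCC15. It ranked between 12 and 37 among all genes by TPM in A427 and between 188 and 495 in HCC15. It made up 95.1%, 93.1% and 92.5% of the summed TPM of the 10 members in A427, but 64.4%, 63.5% and 45.8% in HCC15. The other nine members together came to 237.42 to 273.79 TPM in A427 and 354.94 to 387.78 TPM in HCC15. The summed transcript of these 10 genes in A427 was thus almost entirely ALDH1A1. In the HCC15 siRNA 4 library the other members of this set together exceeded ALDH1A1. These sums are not the whole family. They leave out ALDH9A1 (115.02, 109.41 and 75.8 TPM in HCC15), ALDH3A1 (62.87, 86.94 and 81.22 TPM in HCC15) and other aldehyde dehydrogenase genes. Which library passes that point depends on the genes summed.

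**Figure D1:**
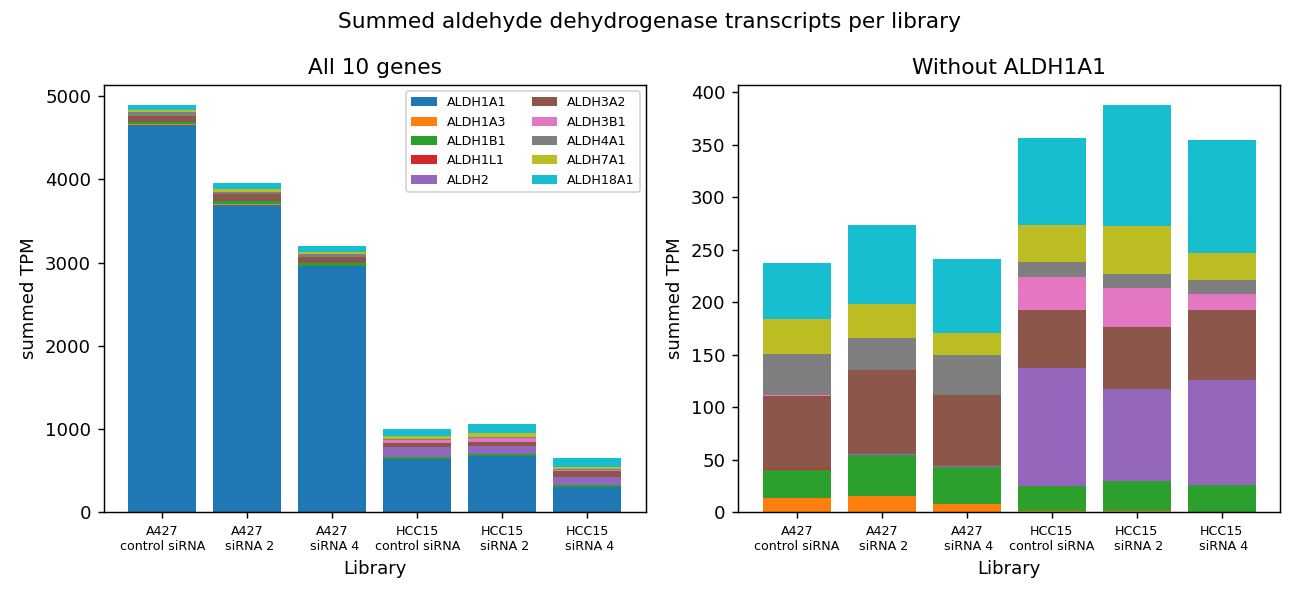
Stacked bars give the summed TPM of the 10 members in each library (left) and of the members without ALDH1A1 (right, with its own axis). ALDH1A1 fills most of each A427 bar, and ALDH2 and ALDH3B1 appear as visible segments in HCC15 only.

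The order of levels differed between the lines. In A427 ALDH1A1 was followed by ALDH3A2 (67.7 to 80.28 TPM) and ALDH18A1 (53.19 to 75.55), whose ranges overlapped. ALDH4A1 (30.06 to 39.59), ALDH1B1 (26.64 to 39.72) and ALDH7A1 (21.28 to 33.26) also overlapped, then ALDH1A3 (8.32 to 15.29) stood below them. ALDH2, ALDH3B1 and ALDH1L1 did not reach 0.5 TPM in any A427 library. In HCC15 ALDH1A1 was followed by ALDH18A1 (83.45 to 114.8 TPM) and ALDH2 (87.55 to 111.94), with overlapping ranges, and then by ALDH3A2 (55.82 to 66.01). ALDH7A1 (25.78 to 45.68), ALDH3B1 (15.18 to 37.25) and ALDH1B1 (24.44 to 27.82) overlapped, and ALDH4A1 (13.66 to 13.98) lay below them. ALDH1A3 (0.15 to 1.66) and ALDH1L1 (0.03 to 0.08) came last. The range in each line spans the 3 siRNAs, so it holds siRNA effects as well as library spread.

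**Figure D2:**
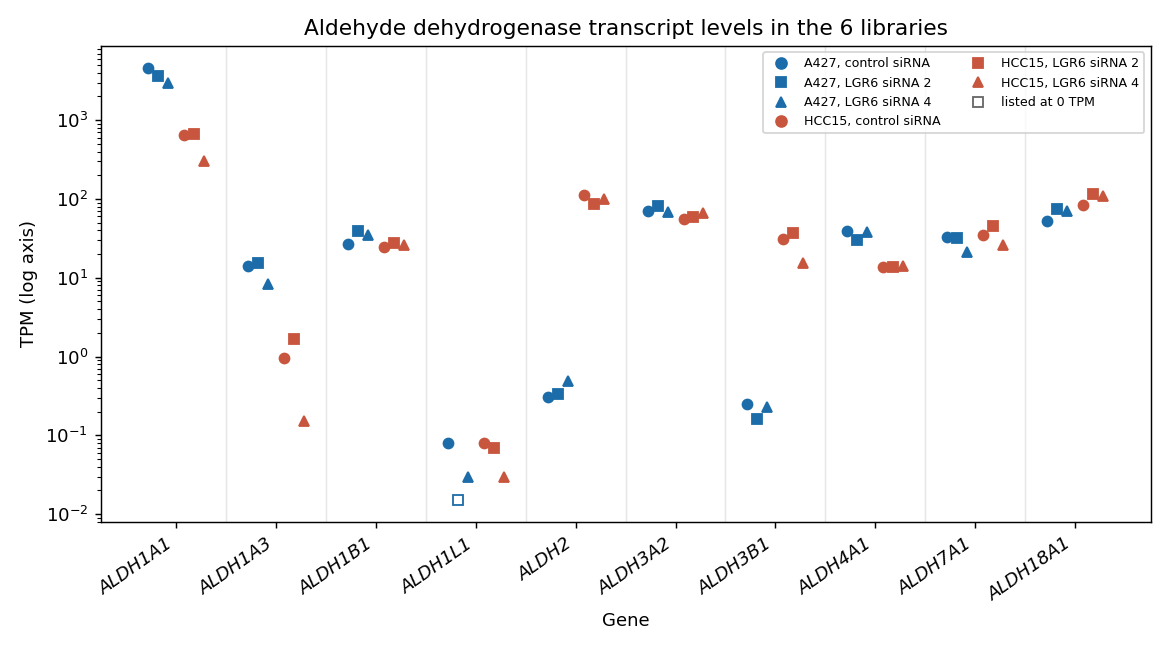
Each point is the TPM of a member in 1 library on a log axis, with line by colour and siRNA by marker shape. The open square for ALDH1L1 stands for a value listed at 0, drawn at the foot of the axis. The 2 lines are farthest apart for ALDH2 and ALDH3B1.

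The 2 lines shared most of these transcripts but differed in their levels. ALDH1A1, ALDH1B1, ALDH3A2, ALDH4A1, ALDH7A1 and ALDH18A1 were at 13.66 TPM or more in every library of both lines. Of the 9 members tested, 4 were higher in HCC15 (ALDH2, ALDH3B1, ALDH18A1 and ALDH7A1) and 3 were lower (ALDH1A3, ALDH1A1 and ALDH4A1). That share was near the background, since 76.5% of all tested genes differed between the lines (37.2% higher, 39.3% lower in HCC15), so it is no result about the family. The sizes of the differences are given as descriptions of each gene. The median fitted log2 fold change of the 9 members was -0.18, beside -0.03 over all tested genes. Scaling by library size alone moved the median of all genes by -0.10.

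The retinal dehydrogenases ALDH1A1 and ALDH1A3, which make retinoic acid from retinal, were both lower in HCC15. ALDH1A1 had 142145, 99210 and 85138 reads in A427 and 19016, 20076 and 9042 in HCC15. The fitted log2 fold change was -2.77 (SE 0.15, edgeR quasi-likelihood test, adjusted p = 6.49e-07). ALDH1A3 had 656, 626 and 365 reads in A427 and 43, 75 and 7 in HCC15, and fell by 3.78 on the log2 scale (SE 0.30, edgeR adjusted p = 5.96e-06). For both genes every A427 library lay above every HCC15 library.

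ALDH2, the mitochondrial enzyme that clears acetaldehyde made from ethanol, was close to absent from A427. It had 8, 7 and 12 reads in A427 and 2828, 2227 and 2580 in HCC15. Summed over each line and relative to TMM-scaled library size, HCC15 had 292 times the A427 level (95% exact interval 200 to 443, covering counting error only). The fitted log2 fold change was 8.18 (SE 0.19, edgeR adjusted p = 7.25e-09). ALDH1B1, a mitochondrial enzyme of similar sequence, had 1078, 1416 and 1334 reads in A427 and 954, 1097 and 1039 in HCC15. Its line difference did not pass the test (edgeR adjusted p = 0.0824), but it did with library size alone as the scaling (-0.36, adjusted p = 0.0233) and with limma on TPM (-0.34 and -0.35, adjusted p = 0.0274 and 0.0291 with pseudocounts of 1 and 0.1).

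The fatty aldehyde enzymes differed from each other. ALDH3A2, which oxidises long-chain fatty aldehydes in the endoplasmic reticulum, had 3480, 3519 and 3177 reads in A427 and 2667, 2859 and 3220 in HCC15, and the ranges overlapped (edgeR adjusted p = 0.208). Without the A427 siRNA 4 library it was called lower in HCC15 (-0.33, adjusted p = 0.0336). ALDH3B1, which oxidises aldehydes from lipid peroxidation, had 9, 5 and 8 reads in A427. In HCC15 it had 1098, 1319 and 545.99 expected reads. The HCC15 level was 139 times the A427 level (95% exact interval 91.6 to 222), and the fitted log2 fold change was 7.06 (SE 0.25, edgeR adjusted p = 6.92e-08). ALDH3B2, a close paralog of ALDH3B1, was at no more than 2 reads in any library. In the HCC15 siRNA 4 library the expected counts were 545.99 and 1.01, neither of them whole. Which genes such reads were divided between is not given in the tables.

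Of the amino acid enzymes, ALDH18A1 makes pyrroline-5-carboxylate for proline synthesis, ALDH4A1 breaks that compound down to glutamate, and ALDH7A1 oxidises an aldehyde of lysine breakdown. ALDH18A1 had 2447, 3063 and 3024 reads in A427 and 3703, 5148 and 4876 in HCC15, and was higher in HCC15 by 0.72 on the log2 scale (SE 0.09, edgeR adjusted p = 0.000125). ALDH4A1 had 1733, 1151 and 1588 reads in A427 and 589, 591 and 615 in HCC15, and fell by 1.25 on the log2 scale (SE 0.12, edgeR adjusted p = 1.62e-05). The synthetic enzyme was thus the higher of the 2 in HCC15 relative to A427 and the degrading one the lower, with no overlap between the lines for either. ALDH7A1 was close between the lines, with a log2 fold change of 0.38 (SE 0.11, edgeR adjusted p = 0.0112) and overlapping ranges. That call was lost without the A427 siRNA 2 library (adjusted p = 0.0574), without the HCC15 siRNA 2 library (0.0533), with limma on TPM (0.0619 and 0.0636 with pseudocounts of 1 and 0.1), and with no replicate block, where siRNA was left out of the model (0.187).

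ALDH1L1, the cytosolic enzyme that consumes 10-formyltetrahydrofolate, was the 1 member not tested. It had 3, 0 and 1 reads in A427 and 3, 3 and 1 in HCC15. The count of 0 in the A427 siRNA 2 library allows up to 0.117 CPM. No difference in ALDH1L1 was detectable at this depth.

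No member passed the test when both LGR6 siRNAs were set against control over both lines. The silenced gene LGR6 did not pass it either, at a log2 fold change of -2.29 (SE 0.47, edgeR adjusted p = 0.170). The background was 0% of tested genes for this comparison, with 1512 genes at an unadjusted p under 0.05 and 389 genes past the threshold in DESeq2, none of them members. Fitted log2 fold changes of the 9 members ran from -0.48 to 0.41, with a median of -0.14, beside -0.01 over all tested genes. The smallest p belonged to ALDH18A1, at a log2 fold change of 0.41 (SE 0.12, edgeR adjusted p = 0.340), and the next to ALDH1B1, at 0.29 (SE 0.15, edgeR adjusted p = 0.574).

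ALDH18A1 had higher values in all 4 LGR6 siRNA libraries than in the control of the same line. Its CPM was 83.8, 116.8 and 109.6 in A427 and 140.8, 180.5 and 190.0 in HCC15. The ratios to control were 1.39 and 1.31 in A427 and 1.28 and 1.35 in HCC15, and every counting interval lay above 1. Both ratios of a line share its 1 control library, so they are not independent, and the intervals leave out spread between libraries. ALDH1B1 ratios, given further on, were also above 1 with both siRNAs in both lines. In a fit that took each siRNA number as a replicate block, because a number is the same reagent in both lines, the mean response of ALDH18A1 was 0.41 (SE 0.10, edgeR adjusted p = 0.0410). It was the 1 member called in that fit, where 8.96% of tested genes were called (3.31% higher, 5.65% lower). For single siRNAs its edgeR adjusted p was 0.0637 with siRNA 2 and 0.0518 with siRNA 4. These crossed the threshold in DESeq2 (0.0139 and 0.0167), and the siRNA 2 value also did with limma on TPM (0.0412 and 0.0445). The siRNA 4 value crossed it with median-ratio scaling (0.0488), with library size alone (0.0418), and without the A427 siRNA 2 (0.0423) or HCC15 siRNA 2 (0.0430) library. Most alternatives did not call ALDH18A1: 3 of 12 did so with siRNA 2 and 5 of 12 with siRNA 4. Its fitted values ran from 0.35 to 0.49 with siRNA 2 and from 0.37 to 0.46 with siRNA 4. Of 13 alternatives for both siRNAs over both lines, only the replicate block called it. ALDH18A1 with siRNA 4 was singled out after its values were seen.

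**Figure D3:**
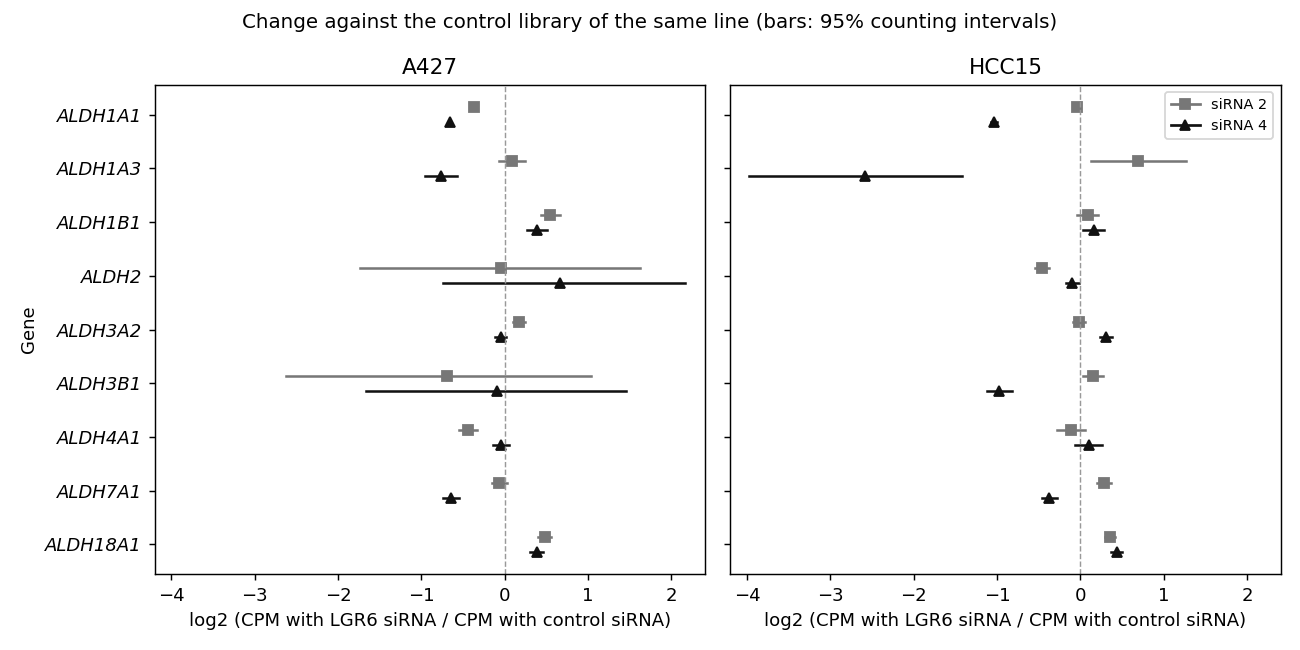
Points give the log2 ratio of CPM with each LGR6 siRNA to CPM with the control siRNA in A427 (left) and HCC15 (right), and bars are 95% exact intervals for counting error. ALDH18A1 lies to the right of 0 with both siRNAs in both lines, and siRNA 4 lies left of siRNA 2 for ALDH1A1, ALDH1A3 and ALDH7A1 in both lines.

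Within single lines no member passed. The silenced gene LGR6 was not called within HCC15 either, at -2.17 (SE 0.56), so these fits could miss changes of that size. The background was 0% of tested genes within HCC15 (535 genes at an unadjusted p under 0.05, and 28 past the threshold in DESeq2) and 0% within A427 (390 and 4). In these fits the spread came from the difference between siRNA 4 and siRNA 2. In HCC15 the members with the smallest p were ALDH18A1 (0.40, SE 0.22) and ALDH1A1 (-0.45, SE 0.48), and in A427 they were ALDH1B1 (0.47, SE 0.24) and ALDH18A1 (0.43, SE 0.23), all with an edgeR adjusted p of 1. The response in HCC15 minus that in A427 was not called for any member either, against a background of 0% (78 genes at an unadjusted p under 0.05, and 0 past the threshold in DESeq2). Its smallest p values were those of ALDH2 (-0.63, SE 0.60) and ALDH1B1 (-0.35, SE 0.34), with an edgeR adjusted p of 0.999969 for each.

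LGR6 siRNA 2 against control called 0 of the 9 members, beside 7.62% of tested genes (2.96% higher, 4.66% lower). The median log2 fold change of the members was 0.10, beside -0.01 over all tested genes. ALDH18A1, at 0.42 (SE 0.11, edgeR adjusted p = 0.0637), and ALDH2, at -0.43 (SE 0.18, edgeR adjusted p = 0.182), had the smallest p. The ALDH2 value rests on HCC15, where its CPM was 107.5, 78.1 and 100.5. Without the HCC15 control library it was 0.16 (edgeR adjusted p = 0.955).

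LGR6 siRNA 4 against control called 3 of the 9 members, all lower: ALDH1A1, ALDH7A1 and ALDH3B1. The background was 12.5% of tested genes (4.58% higher, 7.95% lower). Both siRNA comparisons use the same control libraries. The median log2 fold change of the 9 members was -0.04, beside -0.01 over all tested genes, and 4 of the 9 values lay above 0.

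ALDH1A1 was lowest with siRNA 4 in both lines. Its CPM was 4867, 3783 and 3087 in A427 and 723.1, 703.9 and 352.4 in HCC15. The siRNA 4 ratio to control was 0.634 in A427 (95% exact interval 0.629 to 0.640) and 0.487 in HCC15 (0.475 to 0.4996). With siRNA 2 the ratio was 0.777 in A427 and 0.973 in HCC15. The fitted log2 fold change for siRNA 4 was -0.83 (SE 0.17, edgeR adjusted p = 0.0179). The call was lost without the A427 control (adjusted p = 0.188), the HCC15 control (0.252) or the HCC15 siRNA 4 library (0.205), where the values were -0.83, -0.82 and -0.57.

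ALDH7A1 also had its lowest value with siRNA 4 in both lines. Its CPM was 76.1, 72.8 and 48.7 in A427 and 85.8, 104.4 and 66.2 in HCC15. The siRNA 4 ratio to control was 0.640 in A427 and 0.771 in HCC15, while with siRNA 2 it was 0.956 and 1.22. The fitted log2 fold change was -0.51 (SE 0.13, edgeR adjusted p = 0.0409). The call was lost without the A427 control (-0.34, adjusted p = 0.412), the A427 siRNA 4 (-0.46, 0.135), the HCC15 control (-0.66, 0.170) or the HCC15 siRNA 4 library (-0.55, 0.189). It was also lost with library size alone (0.0561), with no filter on low counts (0.0569) and with limma on TPM (0.0641 and 0.0687).

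The ALDH3B1 call came from HCC15, where its CPM was 41.8, 46.2 and 21.3. The siRNA 4 ratio to control there was 0.510 (95% exact interval 0.459 to 0.565). In A427, with 5 to 9 reads, the ratio was 0.941 and its interval ran from 0.316 to 2.75. The fitted log2 fold change was -0.92 (SE 0.24, edgeR adjusted p = 0.0431). It was not called without the A427 control (-0.89, adjusted p = 0.142) or the HCC15 control (-0.89, 0.667). Without the HCC15 siRNA 4 library it reversed to 0.25 (0.896). The call was also lost in DESeq2 (0.258), with library size alone (0.0561) and with limma on TPM (0.337 and 0.411).

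The 2 siRNAs against the same target gave different values for 4 members. Against siRNA 2, siRNA 4 had lower ALDH1A1, ALDH1A3, ALDH3B1 and ALDH7A1 and no higher member, beside a background of 16.5% of tested genes (7.7% higher, 8.84% lower). This comparison uses no control level, although the control libraries enter the estimate of the spread. The median log2 fold change of the members was -0.05, beside 0.00 over all tested genes.

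For ALDH7A1 the siRNA 4 to siRNA 2 ratio was 0.669 in A427 and 0.634 in HCC15, and the fitted log2 fold change was -0.62 (SE 0.13, edgeR adjusted p = 0.0172). For ALDH1A1 the ratio was 0.816 in A427 and 0.501 in HCC15, and the fitted value was -0.64 (SE 0.17, edgeR adjusted p = 0.0375). ALDH1A3 CPM was 22.5, 23.9 and 13.2 in A427 and 1.64, 2.63 and 0.273 in HCC15. Its ratio was 0.554 in A427 (95% exact interval 0.486 to 0.632) and 0.104 in HCC15 (0.0403 to 0.224, from 7 and 75 reads). The fitted value for ALDH1A3 was -1.24 (SE 0.34, edgeR adjusted p = 0.0429). ALDH3B1 had a ratio of 0.460 in HCC15 and 1.52 in A427 (interval 0.439 to 5.91), with a fitted value of -1.02 (SE 0.24, edgeR adjusted p = 0.0246). The first 3 of these genes were thus lower with siRNA 4 in both lines, while ALDH3B1 could be read in HCC15 only.

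These calls depended on single libraries. Without the A427 control or the HCC15 control, ALDH7A1 was the 1 member still called (adjusted p = 0.0358 and 0.0382). In the same fits the adjusted p was 0.0985 and 0.111 for ALDH1A1, 0.0847 and 0.0852 for ALDH1A3, and 0.0526 and 0.0661 for ALDH3B1. Without the HCC15 siRNA 2 library no member was called, with adjusted p of 0.196 for ALDH1A1 (log2 fold change -0.39), 0.125 for ALDH1A3 (-0.98), 0.963 for ALDH3B1 (0.11) and 0.127 for ALDH7A1 (-0.51). Without the HCC15 siRNA 4 library none was called either, with 0.336 for ALDH1A1 (-0.39), 0.106 for ALDH1A3 (-0.95), 0.952 for ALDH3B1 (0.13) and 0.109 for ALDH7A1 (-0.69). Leaving out the A427 siRNA 4 library lost ALDH7A1 (-0.57, 0.0620) and moved ALDH1A3 to -3.07 (0.00845), and leaving out the A427 siRNA 2 library moved ALDH1A3 to -2.08 (0.0394). ALDH1A3 was lost with library size alone (0.0628), and ALDH3B1 was lost in DESeq2 (0.220) and with limma on TPM (0.246 and 0.460).

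**Figure D4:**
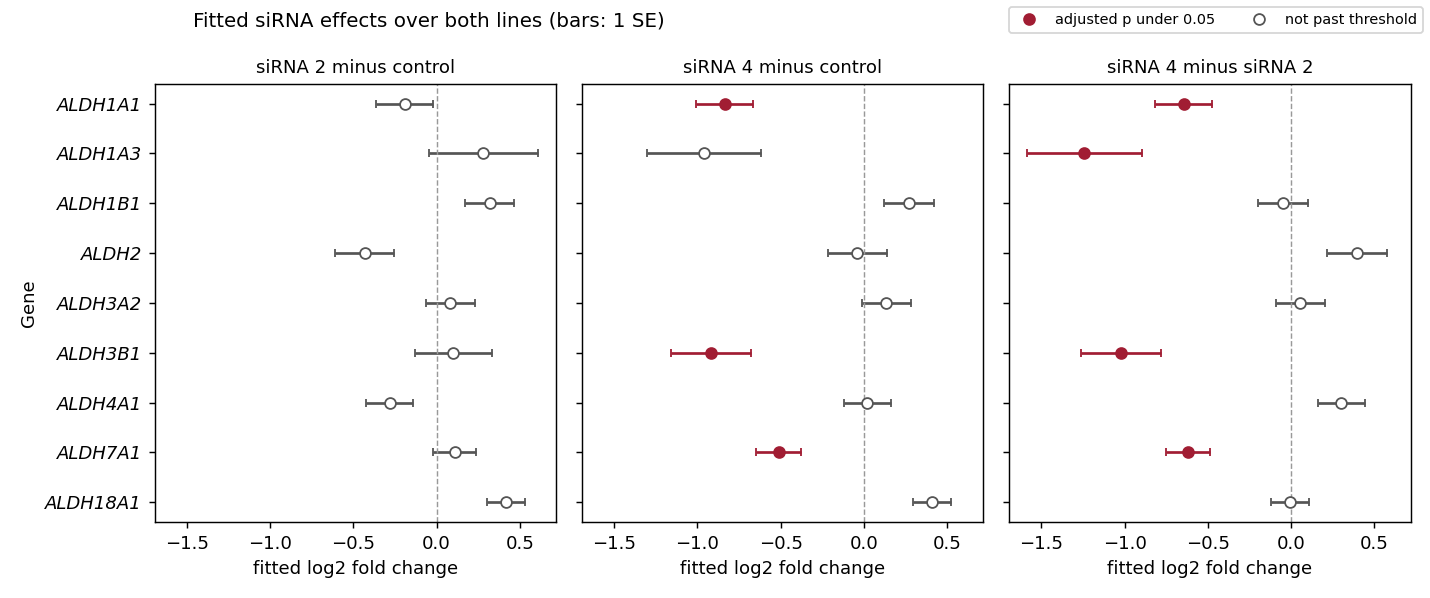
Points are edgeR log2 fold changes of the 9 tested members over both lines and bars are 1 SE, for siRNA 2 minus control, siRNA 4 minus control and siRNA 4 minus siRNA 2. Filled red points passed the threshold: none in the first panel, 3 in the second and 4 in the third, all left of 0.

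The remaining members gave no call with either siRNA. ALDH1B1 CPM was 36.9, 54.0 and 48.4 in A427 and 36.3, 38.5 and 40.5 in HCC15, with ratios to control of 1.46 and 1.31 in A427 and 1.06 and 1.12 in HCC15. The counting interval of the HCC15 siRNA 2 ratio, 0.971 to 1.16, included 1. ALDH4A1 CPM was 59.3, 43.9 and 57.6 in A427 and 22.4, 20.7 and 24.0 in HCC15. ALDH3A2 CPM was 119.2, 134.2 and 115.2 in A427 and 101.4, 100.2 and 125.5 in HCC15. The siRNA that gave the higher ALDH3A2 value was siRNA 2 in A427 and siRNA 4 in HCC15.

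Of 9 other aldehyde dehydrogenase genes listed, 6 were tested, and 4 were higher and 1 lower in HCC15, a share near the 76.5% of all tested genes that differed between the lines. The sizes varied widely among the 4 higher genes. ALDH9A1 and ALDH16A1 were present in both lines, at 1.48 and 1.72 times the A427 level in HCC15, while ALDH1L2 and ALDH3A1 were close to absent from A427. ALDH1L2, the mitochondrial counterpart of ALDH1L1, had 1 read over the A427 libraries and 10586 over the HCC15 libraries. ALDH3A1 had 0 reads in A427 and 1348, 1883 and 1778 in HCC15. That was at least 1722-fold higher relative to TMM-scaled library size, against 3 reads over the A427 group. The cytosolic ALDH1L1 was thus at or under 3 reads in both lines, while its mitochondrial counterpart was high in HCC15. With siRNA 4, 2 of the 6 fell and none rose, beside 12.5% of all tested genes called (7.95% lower). ALDH1L2 fell by 1.59 on the log2 scale (SE 0.19, edgeR adjusted p = 0.00160), a value read in HCC15, where CPM was 200.4, 126.3 and 66.8. Without the HCC15 control library the value was -3.60 (adjusted p = 0.527) and without the HCC15 siRNA 4 library -2.57 (0.636), fits in which only A427, with 1 read in all, held that contrast. With limma on TPM it was -0.81 and -0.89 and was not called (adjusted p = 0.194 and 0.216). ALDH9A1, which acts in carnitine synthesis, fell by 0.49 (SE 0.12, edgeR adjusted p = 0.0284). With siRNA 2 none of the 6 passed. ALDH1L2 was also lower with siRNA 4 than with siRNA 2 (-0.92, edgeR adjusted p = 0.0117). That difference changed sign without the HCC15 siRNA 2 library, to +1.24 (adjusted p = 0.726), and was -1.93 (0.680) without the HCC15 siRNA 4 library, when only A427, with 0 reads for either siRNA, held the contrast. It was not called without the HCC15 control library (-0.93, 0.0602) or with limma on TPM (-0.52 and -0.54, 0.346 and 0.403).

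Lists of genes around the members' substrates were counted the same way. Of all tested genes 76.5% differed between the lines, 7.62% were called with siRNA 2, 12.5% with siRNA 4 and 16.5% between the siRNAs. The line counts below were 72.7% to 88.2% of each list's tested genes, near that background, so they are no result about the lists. Calls with an siRNA were 0 to 3 genes per list, and the values of single genes are given as descriptions. For retinoid handling and receptors, 17 of 24 were tested, and 9 were higher and 6 lower in HCC15. With siRNA 2, 2 fell and none rose: CYP26B1, which degrades retinoic acid (-2.01, edgeR adjusted p = 0.00822), and RDH10, which makes retinal (-1.18, 0.0160). With siRNA 4 none passed, and against siRNA 2 both were higher with siRNA 4 (CYP26B1 1.55, edgeR adjusted p = 0.0116, RDH10 1.43, 0.00415). The CYP26B1 difference was called in 9 of 12 alternatives, with values from 0.71 to 2.15. Among those that lost it were the fits without the A427 siRNA 2 (1.99) or HCC15 siRNA 4 library (1.37). The retinal-oxidising members ALDH1A1 and ALDH1A3 had the opposite order, lower with siRNA 4 than with siRNA 2.

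Among proline and glutamate semialdehyde enzymes, 11 of 12 were tested, and 3 were higher and 5 lower in HCC15. With siRNA 4 the glutamine transporter SLC1A5 fell by 1.34 (edgeR adjusted p = 0.00396) and GLUD1, glutamate dehydrogenase, fell by 0.86 (0.0101). Both were also lower with siRNA 4 than with siRNA 2 (SLC1A5 -0.78, edgeR adjusted p = 0.0245, GLUD1 -1.36, 0.00161). The SLC1A5 difference between the siRNAs lost its call without the A427 siRNA 2 (-0.43, adjusted p = 0.101), A427 siRNA 4 (-0.72, 0.0864) or HCC15 siRNA 4 library (-0.85, 0.149). All 17 folate enzymes were tested, and 11 were higher and 4 lower in HCC15. With siRNA 2 the folate carrier SLC25A32 fell by 1.06 (edgeR adjusted p = 0.0172). With siRNA 4 MTFMT, which formylates the initiator methionine tRNA of mitochondria, fell by 1.61 (0.00480). MTFMT was also the 1 folate gene lower with siRNA 4 than with siRNA 2, a difference called in 9 of 12 alternatives.

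Of 19 alcohol dehydrogenases, aldo-keto reductases and carbonyl reductases 10 were tested, and 7 were higher and 1 lower in HCC15. The carbonyl reductase CBR1 rose with siRNA 2 (0.59, edgeR adjusted p = 0.0319) and with siRNA 4 (0.48, 0.0473). With siRNA 4 CBR4 fell by 1.48 (0.00317) and AKR1C1 rose by 1.23 (0.0152), the latter uncertain because AKR1C genes are near copies and A427 had at most 1 read. Between the siRNAs 1 was higher (AKR1C1) and 2 were lower (ADH5 and CBR4) with siRNA 4. Of 12 alternatives, 4 called the AKR1C1 difference and 9 each called those of ADH5 and CBR4. Of 10 ether lipid and fatty aldehyde enzymes 8 were tested, and 2 were higher and 4 lower in HCC15. With siRNA 2 SGPL1, which makes a fatty aldehyde from sphingosine phosphate, fell by 0.80 (edgeR adjusted p = 0.0110). With siRNA 4 PHYH fell by 0.72 (0.00901) and AGPS by 0.48 (0.0351). Between the siRNAs, SGPL1 was higher and PHYH and AGPS were lower with siRNA 4. All 12 alternatives called the SGPL1 and PHYH differences, and 9 of 12 called that of AGPS. The list genes named here as changed against control, ALDH1L2 and ALDH9A1 included, each lost the call without the HCC15 control library, where adjusted p was 0.0655 to 0.954, and each also lost it without 1 or more other libraries. AKR1C1 with siRNA 4 also reversed there, to -0.36, and was not called in DESeq2 (0.236) or with limma on TPM (0.238 and 0.319).

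Genes whose pattern over the 6 libraries was nearest to the 3 most variable members were found by the root mean square distance of centred log2(CPM + 1) among 13075 genes with a mean of at least 1 CPM. For ALDH2 they were QPCT (0.130), SCARA3 (0.133) and MAGI2-AS3 (0.157). For ALDH3B1 they were NHS (0.138), FIBCD1 (0.141) and SHC3 (0.149). For ALDH1A3 they were LTBP1 (0.0973), ZDHHC23 (0.160) and DNAJB11 (0.184). LTBP1 was at 30.9, 34.1 and 20.0 CPM in A427 and 2.81, 5.01 and 1.01 CPM in HCC15. It was picked for its closeness to ALDH1A3 in these same libraries. The order it shares with ALDH1A3, siRNA 4 lowest in each line, is thus no separate result.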

How the data were processed

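Gene expression was measured by RNA sequencing, with an mRNA library kit per the labels' protocols, in 6 libraries. The submitters' processing notes name FastQC 0.11.1, STAR 2.5.3a, RSEM 1.3.3 and build hg19. The annotation and the strand setting of the counting were not given in the sources used here. Deposited expected counts are RSEM estimates per gene, 5.75% to 6.29% of them not whole, and were rounded. TPM were used as deposited by the authors, for levels between genes and as an alternative.

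Genes reaching 10 reads in 2 or more libraries were tested with edgeR 4.0.16 (TMM, quasi-likelihood, Benjamini-Hochberg over 14481 genes, adjusted p under 0.05) in R 4.3.3. The fitted designs were line plus siRNA, line plus arm, and line by arm. Alternatives were other scalings, no filter, DESeq2 1.42.0, limma 3.58.1 on log2(TPM + 1) and log2(TPM + 0.1), each library left out, and the siRNA number as a replicate block, which pairs libraries by reagent per the labels. Procedures were tested on simulated counts with a capped spread between libraries, which says nothing on replicate error in these data. Ratios carry 95% exact intervals, for counting error only, and a count of 0 allows 3 reads.

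The members and gene lists were chosen with earlier results of these data known. Named were all members, with fitted values for those past the threshold or the 2 with the smallest p, up to 4 genes past it per list, and the 3 genes most like the 3 most variable members. A few list genes past the threshold are not reported here.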

Additional observations from a re-analysis of the deposited data

How the results depend on the processing

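Of the counts of called members over all alternatives, 84 kept within 1.5 times their value, 9 were lower and 4 higher. Counts of 0 that stayed at 0 were among the 84. Where members were called, the count was kept in 13 of 13 alternatives for the line difference, at 6 to 8 members. A kept count is not a kept set of genes. ALDH7A1 was called in 8 of those 13, and with limma on TPM ALDH1B1 was called and ALDH7A1 was not. The count was kept in 7 of 12 for siRNA 4 against control and in 8 of 12 for siRNA 4 against siRNA 2. For both siRNAs over both lines the replicate block called 1 member. Within HCC15, within A427 and for the difference between them the block called 0. For siRNA 2 against control, DESeq2, limma on log2(TPM + 1) and limma on log2(TPM + 0.1) each called 1. For siRNA 4 against control, limma called 1 with either pseudocount, and leaving out 1 library gave 0 to 4. For siRNA 4 against siRNA 2, leaving out 1 library gave 0 to 4. With 1 library left out, ALDH2 with siRNA 2 ranged from -0.45 to 0.16 on the log2 scale, ALDH3B1 with siRNA 4 from -0.999 to 0.25, and ALDH3B1 with siRNA 4 against siRNA 2 from -1.09 to 0.13. In the same way AKR1C1 with siRNA 4 ranged from -0.36 to 1.27, and ALDH1L2 with siRNA 4 against siRNA 2 from -1.93 to 1.24. The causes were not tested, beyond fewer libraries. Alternatives for list genes, and for ALDH18A1 with siRNA 4, were added after the data were seen. With 1 control library per line and no repeated library, no replicate error can be given, and ALDH2 and ALDH3B1 in A427 and ALDH1L1 in both lines had too few reads to show a siRNA effect.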
